A study of Mus musculus with 8 samples.

Results

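The transcripts of Tbx2, Tbx3, Tbx5 and Tbx20, the 4 T-box genes chosen by name, were compared between Mib1 mutant and wild-type ventricles of mouse embryos at E14.5. All 4 had a row in the deposited table of 13869 genes and all 4 were among the 13740 genes tested. The mutant group held 4 libraries of polyadenylated RNA from hearts labelled Mib1flox; TnT-Cre, in which the troponin T promoter restricts Cre, and so the loss of Mib1, to cardiomyocytes while the other cells of the ventricle keep the gene. The wild-type group held 4 libraries from hearts labelled WT. Each library was made from pooled ventricles, 16 hearts of each genotype having been combined into 4 pools, so that a value describes a pool and not an embryo. The labels do not say whether the wild-type hearts carried a floxed allele or Cre. Nor do they give the litters of the pools, and each p value therefore reflects only how far pools differed, which may be technical.

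T-box factors are transcription factors that share a DNA-binding domain, the T-box, and recognise related sites. In the embryonic heart Tbx5 activates genes of the chamber myocardium together with Nkx2-5 and Gata4, whereas Tbx2 and Tbx3 occupy similar sites and repress chamber genes in the atrioventricular canal and the developing conduction system. Tbx20 is expressed across the myocardium and endocardium and can activate or repress, and in mouse embryos it restrains Tbx2 in the chambers.

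The coding sequences of the 4 genes are related but distinct, which bears on whether reads can be assigned to each. The stretch of 60 bases in which they were most alike lies in the part that encodes the T-box, and it is shown from the GENCODE M21 transcripts with capitals at each base that differs from Tbx2.
Tbx2: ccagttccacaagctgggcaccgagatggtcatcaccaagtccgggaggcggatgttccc
Tbx3: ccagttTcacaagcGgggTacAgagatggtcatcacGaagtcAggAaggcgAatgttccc
Tbx5: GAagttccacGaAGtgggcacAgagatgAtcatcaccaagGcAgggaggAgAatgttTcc
Tbx20: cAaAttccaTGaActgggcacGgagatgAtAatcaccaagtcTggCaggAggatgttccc
Even here Tbx3 differed from Tbx2 at 8 bases, Tbx20 at 11 and Tbx5 at 12. Over the aligned coding sequence Tbx2 and Tbx3 were 65.8% identical, the highest value of the 6 pairs, and Tbx5 and Tbx20 were 55.4% identical, the lowest. The longest run of identical bases between any pair was 20, between Tbx2 and Tbx5, and no member shared a word of 25 bases with another. Some words of 25 bases in the longest transcripts also occurred in genes outside the members. They made up 1.69% of the words of Tbx5, 1.35% of Tbx20, 0.194% of Tbx2 and 0.121% of Tbx3. The sources used here do not state the read length.

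Tbx20 and Tbx3 were higher in Mib1 mutant ventricles, and Tbx2 and Tbx5 did not pass the test. The call of Tbx3 was at the edge of the threshold (limma adjusted p = 0.0492) and was lost in 7 of 8 omissions of a single library. Tbx20 (ENSMUSG00000031965, on chromosome 9) was 1.33-fold and Tbx3 (ENSMUSG00000018604, on chromosome 5) 1.41-fold higher, while Tbx2 (ENSMUSG00000000093, on chromosome 11) stood at −0.19 and Tbx5 (ENSMUSG00000018263, on chromosome 5) at −0.10 on the log2 scale of mutant over wild type. The members called were thus 2 of 4, both higher; in the same comparison 2.24% of all genes tested were called at an adjusted p under 0.05, 0.990% as higher and 1.25% as lower. Levels are given in CPM, counts scaled to a normalised library size of 1000000, and the libraries held between 6307634 and 11506082 counts. Because the libraries hold whole ventricles, a change in the share of cells that express a gene and a change in RNA per cell cannot be told apart.

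Tbx20 was the most abundant member and gave the firmest difference. It stood at 449.8, 419, 383 and 405 CPM in mutant replicates 1 to 4 and at 312, 309.7, 319 and 302 CPM in wild-type replicates 1 to 4. All 4 mutant pools lay above all 4 wild-type pools, and the lowest mutant pool was replicate 3. The log2 difference was 0.41 ± 0.05 (SE; 95% interval 0.30 to 0.53), with a limma adjusted p of 0.000574 over all genes tested. An exact permutation test over the 8 libraries (two-sided) gave p = 0.0286, the smallest that 4 against 4 can give. Between replicates Tbx20 varied by a coefficient of variation of 6.74% in mutants and 2.23% in wild type, against 1.73% and 2.07% from counting alone, so the mutant pools were spread more widely than their counts and the wild-type pools about as widely.

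The call for Tbx20 held whichever library was left out (log2 difference 0.37 to 0.45). It was lost when a blood or endothelial marker level was added to the model, with an adjusted p of 0.0578 beside a log2 difference of 0.33 for the erythroid level and an adjusted p of 0.582 beside 0.89 ± 0.45 (SE) for the endothelial level. The summed level of the 9 endothelial markers was 1035 to 1067 CPM in mutants and 1221 to 1241 CPM in wild type, without overlap, and in that model no gene was called, Mib1 included. The summed level of the 9 erythroid markers analysed was 1966 to 3228 CPM in mutants and 3002 to 4090 CPM in wild type. Of these 9, limma called 2 lower (Hba-a1 and Ank1), against 1.25% of all genes tested. Their log2 differences were below 0 for 8 and above 0 for 1, with a median of −0.49. The part of these cell types in the Tbx20 difference was not tested beyond these fits.

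Tbx3, a repressor of chamber genes in the conduction system, was much less abundant. Its level was 14.2, 16.5, 17.7 and 19.1 CPM in mutant replicates 1 to 4, against 12.8, 13.3, 11.5 and 10.03 CPM in wild-type replicates 1 to 4. The groups did not overlap, but mutant replicate 1 lay only just above wild-type replicate 2, and 8.92% of all genes tested had groups that did not overlap, 4.27% with the mutants above and 4.65% with the mutants below. The log2 difference was 0.50 ± 0.12 (SE; 95% interval 0.24 to 0.76), at a limma adjusted p of 0.0492, with p = 0.0286 by the same exact permutation test. The call was at the edge of the threshold and was lost on omission of any single library other than mutant replicate 1 (7 of 8 omissions, limma adjusted p up to 0.126). Without mutant replicate 1 the difference was 0.58 at a limma adjusted p of 0.0218. The call was also lost with voom weights (adjusted p = 0.0722) and with no variance trend (adjusted p = 0.116). With the erythroid level in the model the difference was 0.57 (adjusted p = 0.289), and with the endothelial level it was 0.16 ± 1.08 (SE; adjusted p = 0.977). Tbx3 rested on 73 to 161 counts per library, and counting alone gave a coefficient of variation of 8.5% in mutants and 10.7% in wild type, against 12.2% and 12.4% observed. In GENCODE M21 the span of the antisense gene Tbx3os1, which was not among the genes analysed, overlaps that of Tbx3. The sources used here do not say whether reads were counted by strand, so whether reads of the pair were kept apart is not known.

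Tbx2, the closest relative of Tbx3 among the members, did not pass the test, and the difference seen for Tbx3 lay outside its interval. It stood at 7.05, 8.02, 9.58 and 8.72 CPM in mutant replicates 1 to 4 and at 9.22, 11.1, 8.66 and 9.05 CPM in wild-type replicates 1 to 4. The groups overlapped, with mutant replicates 1 and 2 below every wild-type pool and mutant replicate 3 above 3 of them. The log2 difference was −0.19 ± 0.13 (SE; 95% interval −0.48 to 0.09; limma adjusted p = 0.544). With 55 to 100 counts per library the replicates varied about as much as counting alone would give, by 12.8% in mutants and 11.4% in wild type against 12.1% and 12%.

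Tbx5, the activator of chamber genes, likewise did not pass the test. Mutant replicates 1 to 4 gave 40.1, 42.2, 46.4 and 50.3 CPM, and wild-type replicates 1 to 4 gave 49, 48.7, 50.4 and 42.8 CPM. Mutant replicates 1 and 2 lay below all wild-type pools, and mutant replicate 4 was level with the highest. The log2 difference was −0.10 ± 0.08 (SE; 95% interval −0.27 to 0.08; limma adjusted p = 0.636), so a rise of the size seen for Tbx20 or Tbx3 lay outside the interval of Tbx5. By exact permutation (two-sided), p = 0.286 for Tbx5 and p = 0.229 for Tbx2.

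**Figure D1:**
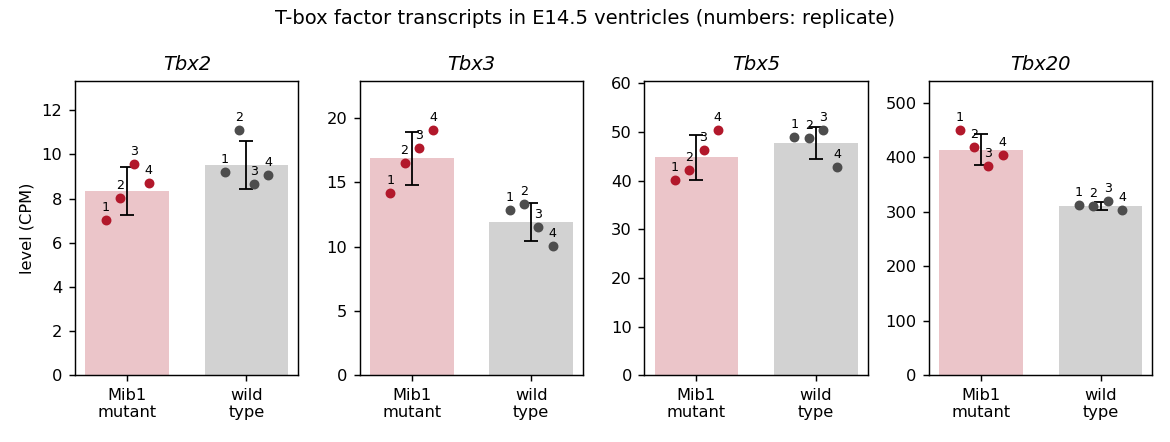
Levels of Tbx2, Tbx3, Tbx5 and Tbx20 in CPM (y axis, linear from 0, scaled for each gene), with Mib1 mutant pools in red on the left and wild-type pools in grey on the right of each panel. Points are pools numbered by replicate, bars are means and error bars are SD over 4 pools; the groups are separate for Tbx3 and Tbx20 and overlap for Tbx2 and Tbx5.

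The mutant pools did not move together over the 4 genes. Mutant replicate 1 had the highest Tbx20 of the mutant pools and the lowest Tbx2, Tbx3 and Tbx5. On the log2 scale relative to the wild-type mean, it stood at 0.53 for Tbx20, 0.26 for Tbx3, −0.25 for Tbx5 and −0.43 for Tbx2. Mutant replicate 4 stood at 0.38 for Tbx20, 0.68 for Tbx3, 0.08 for Tbx5 and −0.12 for Tbx2. Mutant replicate 1 was also the most deeply sequenced library, with 11506082 counts, and with the total count as a covariate Tbx20 (0.39) and Tbx3 (0.54) remained called.

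**Figure D2:**
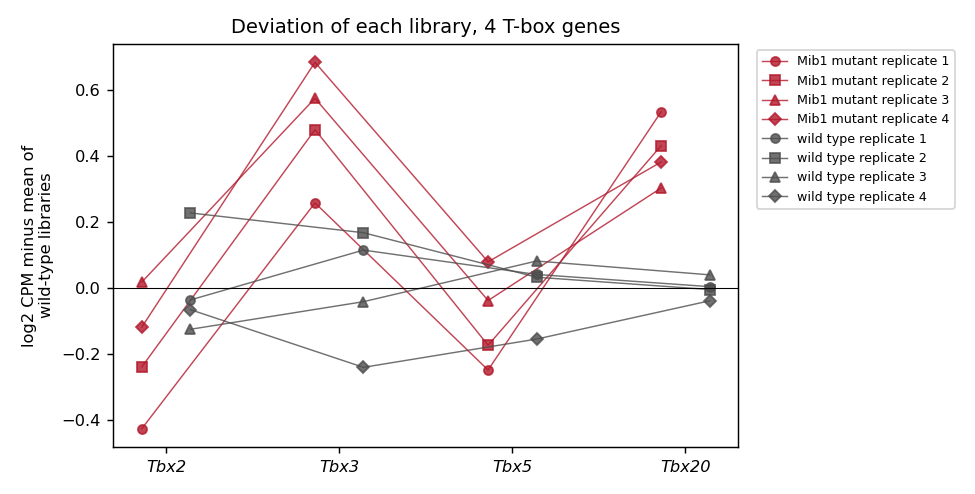
Log2 CPM of each pool minus the mean of the wild-type pools (y axis) for the 4 T-box genes (x axis). Red lines join the genes of a Mib1 mutant pool and grey lines those of a wild-type pool; mutant replicate 1 (circles) is highest of the mutants for Tbx20 and lowest for the other genes.

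Divided by transcript length, Tbx20 was the most abundant member and Tbx5 the next in both groups. Per kilobase of the longest annotated transcript, Tbx20 stood at 45.6 ± 3.07 CPM per kb in mutants and 34.2 ± 0.764 in wild type (SD, n = 4 each). Tbx5 stood at 11.4 ± 1.15 CPM per kb in mutants and 12.1 ± 0.855 in wild type. Tbx3 and Tbx2 formed the low end, Tbx3 with 3.38 ± 0.413 CPM per kb in mutants and 2.39 ± 0.297 in wild type, and Tbx2 with 2.3 ± 0.295 in mutants and 2.62 ± 0.3 in wild type. In wild type the levels of Tbx2 and Tbx3 lay within their spread, and with the median transcript length Tbx3 stood above Tbx2 in both groups, at 4.34 CPM per kb in mutants and 3.07 in wild type. As a share of the summed level per kilobase of the 4 genes, Tbx20 made up 72.7 ± 3.24% in mutants and 66.7 ± 1.31% in wild type, and Tbx5 18.2 ± 2.03% in mutants and 23.6 ± 0.872% in wild type. Tbx3 made up 5.42 ± 0.729% in mutants and 4.65 ± 0.469% in wild type, and Tbx2 3.69 ± 0.57% in mutants and 5.11 ± 0.56% in wild type. The 4 shares sum to the whole, so they are not independent of each other.

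Set against each other within a library, the members differed between genotypes for some pairs and not for others. The mean log2 CPM of Tbx2 and Tbx3 minus that of Tbx5 and Tbx20 was −3.52 ± 0.16 in mutants and −3.51 ± 0.14 in wild type (SD, n = 4 each), but each of these means joins a member with a positive difference and one with a negative, which cancel, so the value says nothing of repressors against activators. The log2 ratio of Tbx3 to Tbx2, both repressors, was 1.01 ± 0.10 in mutants and 0.32 ± 0.15 in wild type, with mutant pools at 0.88 to 1.12 and wild-type pools at 0.15 to 0.47. The log2 ratio of Tbx3 to Tbx5 was −1.50 to −1.35 in mutants and −2.12 to −1.87 in wild type, also without overlap. The log2 ratio of Tbx20 to Tbx5 was 3.21 ± 0.23 in mutants and 2.70 ± 0.08 in wild type, and that of Tbx20 to Tbx2 was 5.63 ± 0.28 in mutants and 5.03 ± 0.17 in wild type; neither overlapped. The groups overlapped for the remaining pairs, with Tbx2 to Tbx5 at −2.42 ± 0.12 in mutants and −2.32 ± 0.18 in wild type and Tbx20 to Tbx3 at 4.62 ± 0.27 in mutants and 4.71 ± 0.17 in wild type. These are ratios of CPM, in which transcript length is not removed but is the same in both groups, and no p is given for them since the pairs were chosen with the members' levels known. A mean log2 ratio shifts between genotypes by the difference of its genes' own log2 differences. The separated ratios each pair a called member (Tbx3 or Tbx20) with an uncalled one, so they are no separate result.

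**Figure D3:**
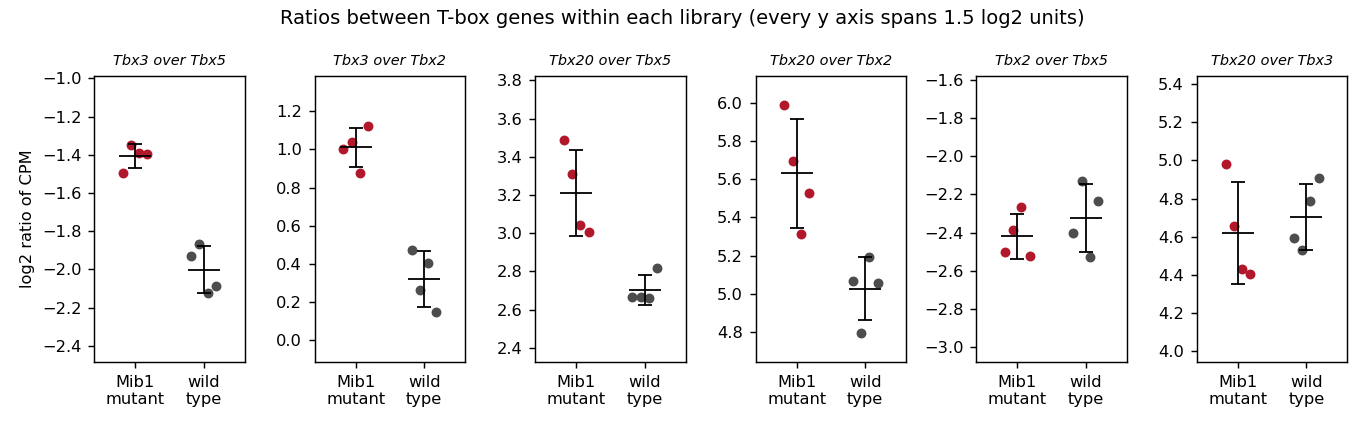
Log2 ratio of CPM between pairs of T-box genes within each library (y axes, each spanning 1.5 log2 units), with Mib1 mutant pools in red and wild-type pools in grey. Horizontal marks and bars are means and SD over 4 pools; the first 4 ratios separate the groups and the last 2 do not.

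Tbx3 and Tbx5 are neighbours on chromosome 5, and their differences had opposite signs, that of Tbx5 not passing the test. The flanking genes analysed were not called: Med13l, a subunit gene of the Mediator kinase module, beside Tbx3 stood at 0.10 ± 0.08 (SE; limma adjusted p = 0.561), and Rbm19, an RNA-binding protein gene, beside Tbx5 stood at −0.15 ± 0.11 (limma adjusted p = 0.557). Bcas3, beside Tbx2, stood at −0.15 ± 0.09 (limma adjusted p = 0.48). Of the 13 other T-box family genes 2 were analysed, and neither limma nor voom weights called either. By limma 1 of them had an unadjusted p under 0.05, beside 2033 of the 13740 genes tested. Tbx18, a T-box gene of the epicardium, stood at 89.7, 83.7, 76.8 and 77.5 CPM in mutants and at 67, 67.2, 70.1 and 78.1 CPM in wild type (log2 difference 0.21 ± 0.07 SE; limma adjusted p = 0.145), with mutant replicates 3 and 4 below wild-type replicate 4. Mga, which joins a T-box to a second DNA-binding domain and represses with Max, averaged 141 ± 13.2 CPM in mutants and 129.6 ± 11.4 CPM in wild type (limma adjusted p = 0.484).

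Genes tied to T-box sites in the chamber myocardium were then examined. Among 15 such genes, listed from general knowledge as activated by Tbx5 or repressed by Tbx2 and Tbx3, 1 rose and 4 fell. The share called was 33.3%, against 2.24% of all genes tested, and the median log2 difference was −0.03 against 0.00. This list and the lists below were chosen with earlier results of these data known. Their called shares depend on that choice. The 4 that fell were Bmp10, a growth factor of the trabeculae (8.44 ± 0.559 CPM in mutants and 41.4 ± 2.33 CPM in wild type), Nppa, the gene of atrial natriuretic peptide (362 ± 35.9 CPM in mutants and 1089 ± 36.1 CPM in wild type), Gja5, the gene of connexin 40 (62.2 ± 5.74 CPM in mutants and 169 ± 3.67 CPM in wild type), and the coregulator gene Cited1 (64.7 ± 4.28 CPM in mutants and 128 ± 6.93 CPM in wild type). Id2, an inhibitor of basic helix-loop-helix factors that Tbx5 and Nkx2-5 activate in the conduction system, rose to 104, 93.1, 109 and 104 CPM in mutants, against 59.8, 59.3, 71.3 and 67.5 CPM in wild type. The Id2 pools did not overlap between genotypes, and on the log2 scale the rise was 0.67 ± 0.07 (SE; limma adjusted p = 0.000128). Other targets in the list stayed close to 0, among them Ryr2 (0.07), the calcium release channel gene, and Atp2a2 (0.07), the calcium pump gene of the sarcoplasmic reticulum; both were chosen after their values were seen. The 2 uncalled genes of smallest p were Kcnj12, a potassium channel gene, at −0.68 ± 0.17 (SE; limma adjusted p = 0.0548), and the natriuretic peptide gene Nppb at −0.41 ± 0.13 (limma adjusted p = 0.132).

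The promoter of Nppa is shown because it holds the complete T-box site searched for. The letters AGGTGTGA, and the shorter AGGTGT that lies within them, were looked for on both strands of the 250 bases before RefSeq starts (GRCm38.p6). Not every chromosome was searched. Capitals mark the letters found, which here read on the opposite strand.
Nppa, chr4:148000472-148000531, plus strand: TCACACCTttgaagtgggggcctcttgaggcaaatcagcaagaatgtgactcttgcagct
Hcn4, chr9:58822699-58822758, plus strand: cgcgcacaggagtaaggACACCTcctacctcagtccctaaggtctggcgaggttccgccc
AGGTGTGA occurred in 1.12% of the 32851 windows searched and in the window of 1 of the 12 chamber genes with one, Nppa. AGGTGT occurred in 11.8% of the windows searched, in 1 of the 12 chamber genes and in 1 of the 7 atrioventricular canal and pacemaker genes with a window, Hcn4. Counted by window, AGGTGT occurred in 7.14% of 14 chamber windows and 12.5% of 8 canal and pacemaker windows. It occurred in 13.3% of 15 windows of other T-box genes, and for 2 lists treated below in 4.55% of 22 partner windows and 0% of 12 upstream windows. Among the members the table of promoters held Tbx20, in whose 250 bases neither run of letters occurred. A match is a run of letters and not a measured binding site.

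Genes of the atrioventricular canal and pacemaker tissue, where Tbx2 and Tbx3 are active, went both ways. Of 13 analysed, 3 rose and 3 fell (46.2% called, against 2.24% of all genes tested). The median log2 difference was 0.10 against 0.00 over all genes tested. Cacna1g, which encodes a T-type calcium channel, rose to 91.3, 126, 125 and 127 CPM in mutants, against 44.1, 42.3, 40.8 and 39.2 CPM in wild type, a 2.79-fold difference (limma adjusted p = 5.37e-07). Kcne1, a potassium channel subunit gene, was 1.79-fold higher (log2 0.84 ± 0.05 SE) and the connexin 45 gene Gjc1 1.23-fold higher (0.30 ± 0.05). Among those that fell, the calcium channel genes Cacna2d2 and Cacna1d stood at −0.66 ± 0.10 and −0.44 ± 0.08, and the pacemaker channel gene Hcn4 at −0.49 ± 0.12 (SE; limma adjusted p = 0.0433). Omitting single libraries ended the call of Hcn4 in 7 of 8 cases and that of Cacna1d in 1. Bmp2, the signal that induces Tbx2 in the canal, did not pass the test, at 9.53 ± 1.19 CPM in mutants and 13.1 ± 1.97 CPM in wild type (−0.46 ± 0.13 SE; limma adjusted p = 0.104). Shox2, a pacemaker transcription factor gene whose value was chosen after it was seen, was near the low end at 1.82 ± 0.432 CPM in mutants and 3.06 ± 0.874 CPM in wild type. Tgfb2, a growth factor gene of the cushions, had a log2 difference of 0.20 ± 0.06 (SE; limma adjusted p = 0.0928).

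**Figure D4:**
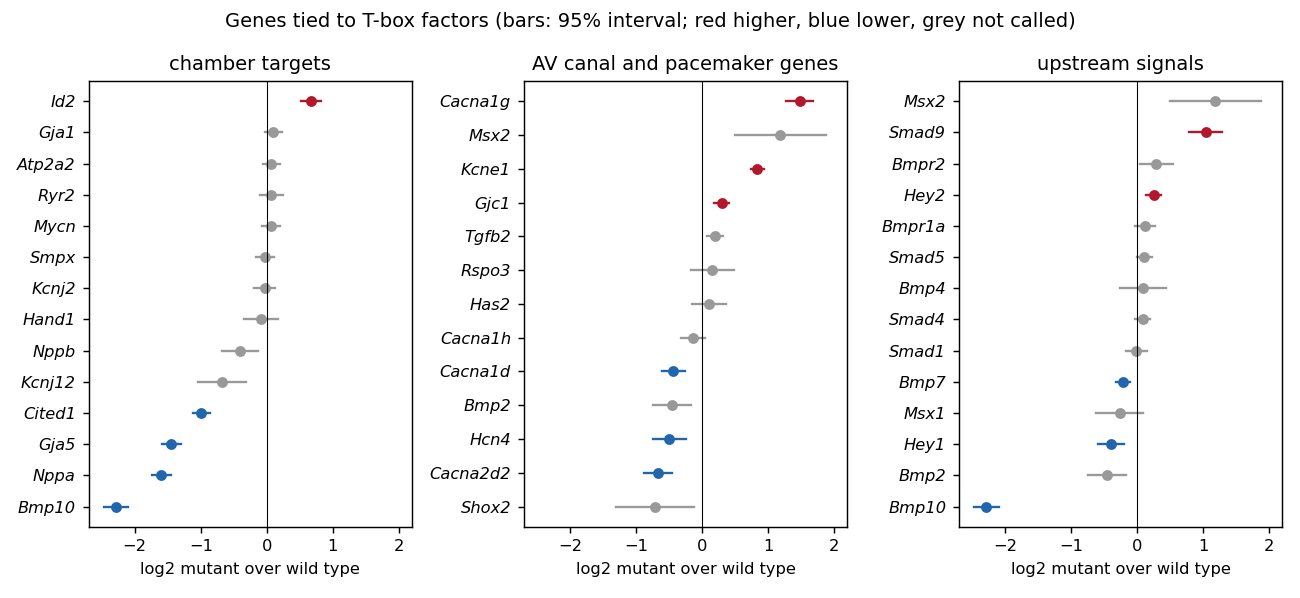
Log2 difference of mutant over wild type (x axis) for the chamber, atrioventricular canal and upstream lists, less 1 chamber gene that is not shown; points are limma estimates and bars 95% intervals. Red marks genes called higher, blue genes called lower and grey genes not called; the chamber panel runs from Bmp10 at −2.29 to Id2 at 0.67 and the atrioventricular (AV) canal panel from Shox2 at −0.72 to Cacna1g at 1.48.

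Upstream signals that set T-box levels in other regions of the heart also included calls in both directions. Of 14 genes of BMP signalling, Hey repressors and Msx factors, 2 rose and 3 fell (median 0.09). The share called was 35.7%, against 2.24% of all genes tested. Bmp10 is counted in the chamber list too and Bmp2 and Msx2 in the canal list. Hey2, which with Hey1 restricts Tbx2 to the atrioventricular canal, stood at 206, 204, 189 and 187 CPM in mutants and at 169, 155, 165 and 171 CPM in wild type (log2 0.25 ± 0.05 SE; limma adjusted p = 0.0238), and Hey1 stood at 15.2 ± 0.591 CPM in mutants and 20.2 ± 1.83 CPM in wild type (−0.40 ± 0.09 SE). Smad9, a transducer of BMP signals, was 2.05-fold higher (15.7 ± 0.409 CPM in mutants and 7.68 ± 1.1 CPM in wild type), and the ligand gene Bmp7 was lower (−0.21 ± 0.05 SE; limma adjusted p = 0.0436). Omitting single libraries ended the call of Hey2 in 4 of 8 cases and those of Hey1 and Bmp7 in 6 each. Msx2, a BMP target that represses with Tbx2 and Tbx3, stood at 3.19 ± 1.19 CPM in mutants and 1.35 ± 0.492 CPM in wild type (1.18 ± 0.32 SE; limma adjusted p = 0.0777).

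None of the 22 partner genes through which T-box factors act was called by limma, against 2.24% of all genes tested. None was called with voom weights either. By limma 6 of the 22 had an unadjusted p under 0.05, beside 2033 of the 13740 genes tested. The list median was 0.02. Smarcd3, the chromatin remodelling subunit that works with Tbx5, came closest at 82.7 ± 4.24 CPM in mutants and 71.5 ± 1.51 CPM in wild type (0.21 ± 0.05 SE; limma adjusted p = 0.0708), and Gata6 stood at 0.14 ± 0.05 (SE; limma adjusted p = 0.235). Groucho corepressors, which bind Tbx20, lay between −0.18 for Tle1 and 0.19 for Tle2, and Nkx2-5, the partner of Tbx5, stood at −0.08 ± 0.13 (SE); these 3 were chosen after their values were seen.

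The tissue and the targeted gene were checked. Ventricular markers were abundant, with Myh7 at 16057 ± 825 CPM in mutants and 16560.1 ± 1257 CPM in wild type. The 7 ventricular markers summed to 27247 to 29554 CPM in mutants and 28701 to 32031 CPM in wild type, and limma called none. By limma 2033 of the 13740 genes tested had an unadjusted p under 0.05, and 4 of these 7 markers did. Among them Tnnt2, the cardiac troponin T gene, stood at −0.21 ± 0.05 (SE; limma adjusted p = 0.0658) and Myl2, a ventricular myosin light chain gene, at −0.17 ± 0.05 (SE; limma adjusted p = 0.135), both with all mutant pools below all wild-type pools; Tnnt2 was chosen after its values were seen. Mib1 itself stood at 100.2 ± 5.33 CPM in mutants and 161 ± 7.48 CPM in wild type. Of the marker lists, the 10 atrial genes summed to 1464 to 1758 CPM in mutants and 1470 to 1627 CPM in wild type, with 1 rise (Myl7) and 1 fall (Kcnj3). Most of that sum came from Myl4 (1030 CPM in mutants and 1114 CPM in wild type) and Myl7 (387 CPM in mutants and 297 CPM in wild type). Of the 10 atrial genes 7 had a log2 difference below 0 and 3 above, with a median of −0.25. By limma 6 of the 10 had an unadjusted p under 0.05. With this summed atrial level, mostly Myl4 and Myl7, as a covariate Tbx3 stood at 0.50 (limma adjusted p = 0.0266) and Tbx20 at 0.41. The 7 cushion markers summed to 697 to 783 CPM in mutants and 713 to 785 CPM in wild type, and the 7 epicardial markers to 138 to 179 CPM in mutants and 152 to 166 CPM in wild type, with no call in either list by limma (0 and 1 at an unadjusted p under 0.05). Of 7 lung markers, tissue that also expresses Tbx2 to Tbx5, only Wnt2 was analysed, at 0.928 ± 0.238 CPM in mutants and 1.84 ± 0.327 CPM in wild type. Of the 9 endothelial markers 5 fell, and of the 9 macrophage markers 3 fell, with macrophage sums of 68 to 83.9 CPM in mutants and 102 to 121 CPM in wild type. Over all genes tested 0.990% were called higher and 1.25% lower. Limma did not call the other 4 endothelial and 6 macrophage markers, although all 9 of each list had a log2 difference below 0. Marker levels do not count cells. Whether these shifts in marker levels bear on Tbx3 or Tbx20 was not tested beyond the fits with a marker level added.

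The genes whose levels followed each member most closely over the 8 libraries were found by Pearson's r of log2 CPM among 10747 genes, which is a description, since all points share the 2 groups and their depths. For Tbx20 they were Perp, a desmosomal and p53-regulated gene (r = 0.976), Sphkap, an anchoring protein gene (r = 0.975), and Tmem35a (r = 0.97), all 3 of them called higher, with log2 differences of 0.50, 0.62 and 0.48. For Tbx3 they were Ptgfrn (r = 0.98), the kinase gene Sbk1 (r = 0.97) and the netrin receptor gene Unc5b (r = 0.968), of which Sbk1 at 0.35 and Unc5b at 0.36 were called higher. For Tbx2 they were Cdc42ep4 (r = 0.977), Chpf (r = 0.971) and Sin3b (r = 0.968), and for Tbx5 Fam3a (r = 0.978), Smpd2 (r = 0.977) and Agbl5 (r = 0.975), none of which was called. Tbx20 and Tbx3 separated the genotypes, so calls among the genes picked to follow them were favoured by the choice and are no separate result.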

How the data were processed

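Ventricular RNA was sequenced from 4 Mib1 mutant and 4 wild-type pools. Per the submitters' processing notes, reads were processed with cutadapt 1.2.1, RSEM 1.16, Bowtie2 0.12.7 (version as named), limma and edgeR, with the build mm9. The deposited values are a score: tested on the file, each is a log2 CPM with a prior of 0.5 counts, multiplied by a constant per column. The constant (second lowest minus lowest distinct value, over log2 of 3) was divided out, and 100% of values then gave whole counts within 0.001. CPM values use the authors' normalised library sizes.

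Symbols came from GENCODE M21 (13428 of 13869 genes matched), and promoters from RefSeq, GRCm38.p6. No positions are given in mm9. The values of 1 gene of the chamber list are not reported here. The gene Tle5 is named Aes in the annotation.

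The comparison of mutant with wild type used limma 3.58.1 in R 4.3.3 (eBayes with a trend, group as the only term). It covered the 13740 genes whose mean log2 CPM reached 0, with Benjamini-Hochberg adjustment and a threshold of 0.05. The 4 members were also tested by exact permutation in scipy 1.17.1. The pipeline was tested on simulated data. Members, lists and tests were chosen with earlier results of these data known. The rule named the members, Mib1, other T-box genes, up to 6 called and 2 uncalled genes of smallest p in each pathway list, called and most abundant markers, and the 3 genes most like each member. Alternatives covered pseudocount, filter, scaling, variance model, weights, block, covariates, threshold and each library left out. A floor of 3 counts is 0.265 to 0.472 CPM per library, for counting error only.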

Additional observations from a re-analysis of the deposited data

Results flagged for a closer look

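Among 132 groups of 4 pools looked at for the genes named by rule, 3 held a pool far from the others by Dixon's ratio at the 95% level, and chance flags about 1 group in 20. None was a T-box gene. Cacna1g was lowest in mutant replicate 1, 91.3 CPM, where the other mutant pools had 125 to 127 CPM; this pool also had the lowest Tbx3 of the mutants. Unc5b was lowest of the wild-type pools in replicate 4, 169 CPM, where the others had 191 to 194 CPM. Unc5b was named because its level followed that of Tbx3 over these same libraries. Perp in wild-type replicate 4 stood at 140 CPM (1145 counts), above 132 to 133 CPM in the others.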

How the results depend on the processing

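Over 26 alternatives no member changed sign. Tbx2 and Tbx5 were called in none, with log2 differences of −0.66 to −0.11 and −0.90 to −0.002. Tbx20 lost its call in 2, with the erythroid level (0.33) and the endothelial level (0.89) as covariates. Tbx3 lost its call under total-count scaling (0.50), upper-quartile scaling (0.49), no variance trend (0.50), voom weights (0.47), the erythroid level (0.57) and the endothelial level (0.16), and in 7 of 8 fits with a library left out. With a library left out Tbx3 ran from 0.42 to 0.58, the T-box partners called from 0 to 1, the upstream signals called from 2 to 6, and the genes called in all from 146 to 477, against 308: 183 without mutant replicate 2, 477 without mutant replicate 3, and 146, 147 and 161 without wild-type replicates 1, 2 and 3. Those called in all numbered 179 with no trend, 490 with array weights, 520 with the atrial level, 79 with the erythroid level, 0 with the endothelial level, and 119 and 551 at thresholds of 0.01 and 0.1. The upstream signals called, 5 in the main comparison, were 3 with no trend, 2 with the erythroid level and 2 at a threshold of 0.01. The atrioventricular canal and pacemaker genes called were 2 with the erythroid level, and 1 T-box partner was called with the atrial level and at a threshold of 0.1. With the endothelial level, 0 genes of the chamber, atrioventricular canal and upstream lists were called, and Id2 (−0.57), Hcn4 (0.20), Cacna1d (0.12) and Mib1 changed sign; the groups did not overlap in this covariate.

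With the replicate number as a block Tbx3 kept 0.50 at an adjusted p of 0.103 and the upstream signals called were 2. Same-numbered pools correlated at −0.04 to 0.10 after removal of the group means and no mutant pool correlated best with the wild-type pool of its number, and the numbers were therefore not treated as pairing. Other causes were not tested. Depth limits Tbx2 and Tbx3, at 55 to 161 counts per library. The levels per kilobase depend on the transcript chosen: with the median transcript length Tbx20 stood at 229.9 in mutants and 173 in wild type, and Tbx5 at 38.3 in mutants and 40.8 in wild type.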
